A study of Mus musculus with 179 samples.

Results

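The cytosolic ribosome is built from a large and a small subunit, and each protein of either subunit is made from its own gene. The genes described here are those whose symbol in the male VTA table has the form of a cytosolic ribosomal protein name (Rpl or Rps with a number, or Rplp0 to Rplp2), without pseudogenes and without ribosomal proteins whose names have another form, such as Rpsa, Fau and Rack1. The rule found 84 of the 37810 genes of that table with values. They were 43 genes of the large subunit, 30 of the small subunit, the 3 stalk genes Rplp0, Rplp1 and Rplp2, and 8 paralogs of other members (Rpl3l, Rpl7l1, Rpl10l, Rpl22l1, Rpl36al, Rpl39l, Rps27l and Rps4y2, which RefSeq calls Rps4l). By Ensembl identifier 47 of the 84 were found among the 16239 genes of the male NAc table used here and 83 among the 32421 genes of the table of all other libraries. The rule uses names alone.

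Poly-A RNA was sequenced from brain punches of adult C57BL/6 mice (C57Bl6/j for all but the male VTA samples) with standard rearing or early life stress (ELS), followed in adulthood by control handling or a second stress. The adult stress was social defeat, encounters with an aggressive mouse, in males, and sub-threshold variable stress (STVS), a short run of changing stressors, in females, and each sex was its own cohort. In every set the 4 groups were standard controls, standard plus adult stress, ELS controls, and ELS plus adult stress. ELS was given on postnatal days 10 to 20, except that male NAc also had groups with days 2 to 12 and that the male VTA labels give no window. Tissue was taken 24 h after behavioural testing. Male VTA, the ventral tegmental area where midbrain dopamine neurons lie, had 4, 6, 4 and 6 libraries in that order. Male NAc, the nucleus accumbens that these neurons project to, had 4 standard control and 6 standard defeat libraries. ELS on days 10 to 20 had 4 control and 6 defeat libraries there, and ELS on days 2 to 12 had 4 and 5. Each male VTA and male NAc sample pooled 3 mice, and every other sample was 1 mouse. Male PFC (prefrontal cortex) and male HIP (hippocampus) had 6 libraries a group, and female VTA, NAc and PFC each had 6 libraries of standard controls and of ELS plus STVS, and 5 of the other two groups.

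Ribosomal protein mRNAs are among the most abundant mRNAs of most cells and are kept in rough proportion, since each protein enters the ribosome in a fixed ratio. Most of them begin with a C followed by a run of pyrimidines, the terminal oligopyrimidine tract, through which the kinase complex mTORC1 and the RNA-binding protein Larp1 set how strongly they are translated. In neurons, ribosomes in dendrites and axons make protein near synapses. The measurements here are of mRNA level and not of translation.

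The bases around the annotated start are shown for 8 genes that later stand out between regions, because the family is known for a pyrimidine run at the start. They come from RefSeq (GRCm38.p6), whose promoter table held an entry for 63 of the 84 genes. Each line covers 15 bases before the start and 15 from it on, on the gene's own strand, 5′ to 3′, and the capitals mark the longest run of C and T in those 30 bases.
Rps6 (chr4:86857353-86857382, minus strand): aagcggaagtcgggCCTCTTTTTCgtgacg
Rps12 (chr10:23787195-23787224, minus strand): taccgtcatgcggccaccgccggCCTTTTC
Rps27 (chr3:90213634-90213663, minus strand): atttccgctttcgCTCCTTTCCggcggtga
Rps27l (chr9:66946071-66946100, plus strand): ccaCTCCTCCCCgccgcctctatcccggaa
Rps2 (chr17:24720048-24720077, plus strand): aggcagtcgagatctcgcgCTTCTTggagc
Rpl12 (chr2:32961697-32961726, plus strand): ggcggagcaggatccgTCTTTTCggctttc
Rpl24 (chr16:55966260-55966289, plus strand): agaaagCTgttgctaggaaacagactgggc
Rpl36al (chr12:69184053-69184082, minus strand): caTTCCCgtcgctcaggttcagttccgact
In Rps6, Rps27, Rpl12 and Rps2 the longest run lies across or close to the start, with 10, 9, 7 and 6 bases. In Rps27l, Rpl36al and Rpl24 it ends before the start, with 9, 5 and 2 bases. In Rps12 its 7 bases begin after the start and reach the edge of the window. Over the 63 genes the longest run had a median of 6 bases, against 4 in the same window of all 27025 genes of the promoter table. The letters CTTTCC, searched on both strands, were read on the gene's own strand in 9 of the 63 windows (14.3%) and in 1.39% of all windows. On the other strand they were found in 0 of 63 and in 1.21% of all windows. The 9 genes were Rpl13a, Rpl15, Rpl18, Rpl28, Rpl35, Rpl38, Rpl39l, Rps10 and Rps27. These are descriptions of the annotated starts.

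Depth ran from 13.6 to 23.9 (in 1e6 recovered reads per library) in male NAc and from 19.2 to 42.7 in the sets of the other table, and is unknown for male VTA, whose values are RPKM (reads scaled to transcript length and sequencing depth). The labels' protocols name an unstranded kit, so reads of overlapping antisense genes are included. Ribosomal protein genes have many processed copies in the genome, and reads of near-identical sequences (Rps4x and Rps4y2, Rps27 and Rps27l) may have been split or dropped, so their levels are uncertain. Xist or Ddx3y went against the labelled sex, or Ttr was at choroid plexus levels, in 14 libraries, called doubted here, among them 3 of the 6 male HIP, 2 of the 6 male PFC and 1 of the 6 female VTA standard controls. The adult label of 10 female NAc libraries repeats the sex, and their titles were used. Summed VTA markers were 22906 to 108301 normalised reads in female VTA controls and at most 1372 in NAc and PFC controls. Summed NAc markers were 39157 to 58511 in NAc and at most 3756 in female VTA and PFC. Summed PFC markers were 56322 to 69011 in female PFC controls, but 140 to 11745 in NAc and 184 to 3589 in VTA controls. In female NAc ELS controls they reached 1971. Their part in the region comparisons was not tested. The 3 hippocampal markers did not set HIP apart, with 10182 to 20544 in HIP and 12019 to 19041 in female NAc controls.

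In male VTA, where values are per length and genes can be compared, nearly every member was abundant. The median gene had a mean of 83.5 RPKM over the 20 libraries, against 6.29 RPKM for the 14586 genes tested, and 81 of the 84 lay above 10 RPKM. Together they took 2.71% to 3.27% of all RPKM of a library. The highest was Rplp1, an acidic protein of the stalk that recruits elongation factors, at 638 ± 24.5 RPKM (SD, n = 20), with a range of 595 to 693. It was followed by Rps15 at 352 ± 21.6, Rps12 at 311 ± 17.2, Rpl4 at 306 ± 9.58 and Rps27 at 299 ± 23.9 RPKM. These last 4 lay close together, and the ranges of neighbours overlapped. The other stalk genes were lower, with Rplp0 at 102 and Rplp2 at 48.8 RPKM, although both proteins sit in the same stalk. Rps6, whose protein is phosphorylated downstream of mTORC1, had 107 RPKM.

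**Figure D1:**
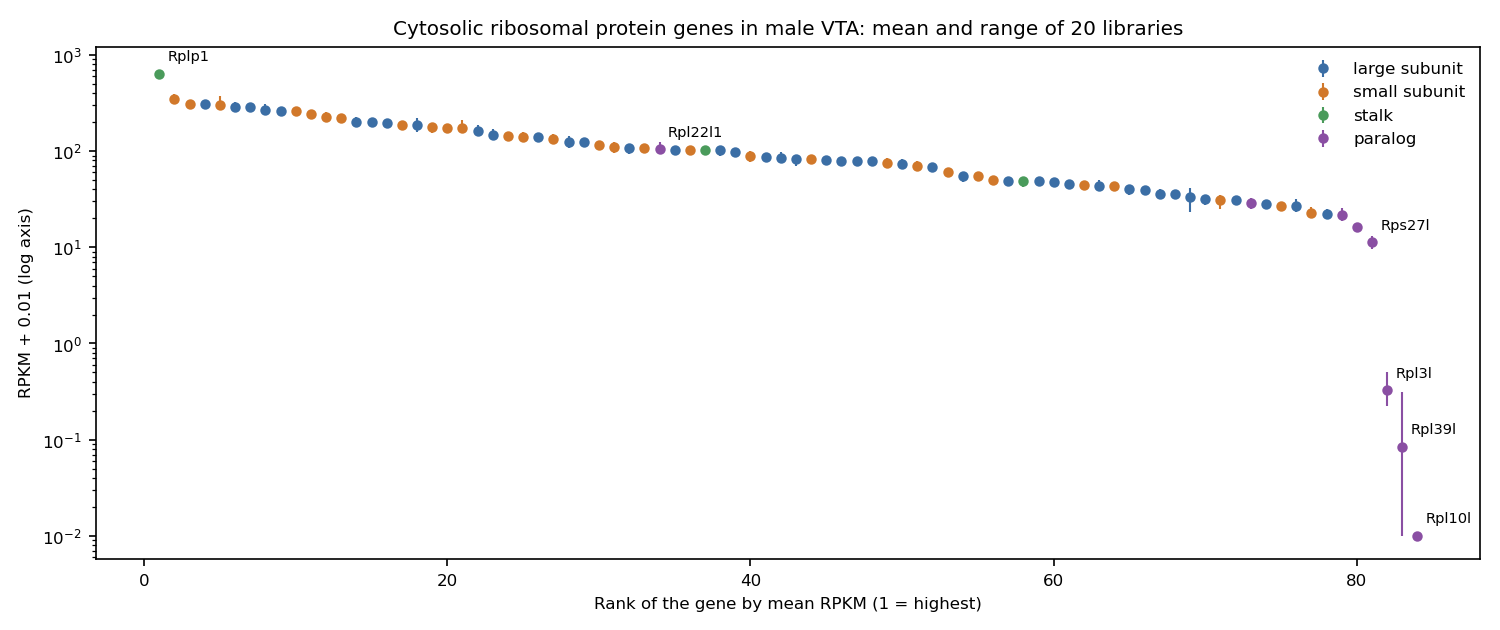
Mean RPKM (points) and lowest to highest of 20 libraries (bars) of the 84 genes in male VTA, on a log axis after adding 0.01, ordered by mean and coloured by role. Rplp1 stands highest at 638 RPKM, and the 3 paralogs Rpl3l, Rpl39l and Rpl10l stand apart at the bottom, with Rpl10l at 0.

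The 5 genes of lowest level were all paralogs. Rpl10l, a testis paralog of the X-linked Rpl10, was listed at 0 in all 20 libraries, while Rpl10 had 82.3 RPKM. Rpl39l, the paralog of Rpl39, ran from 0 to 0.306 RPKM with a mean of 0.0747, against 48.4 for Rpl39. Rpl3l, known from heart and skeletal muscle, had 0.315 ± 0.0759 RPKM, against 291 for Rpl3. Rps27l had 11.3 ± 0.937 and Rpl7l1 16.2 ± 0.693 RPKM, below their parents Rps27 (299) and Rpl7 (79.2). These paralogs thus lay below their parents in every library. The next was Rps4y2, at 21.5 ± 1.99 RPKM against 145 for its X-linked relative Rps4x. Rpl36al, at 28.9 RPKM, stood beside 46.0 for the X-linked Rpl36a. Rpl22l1 went the other way, with 104 RPKM against 28.1 for Rpl22.

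To ask whether the level of the family differs between regions, the mean of log2(normalised reads + 1) over the 81 members that passed the filter (the 14000 genes of highest mean, which Rpl3l and Rpl39l missed; Rpl10l is not in that table) was taken in each library. In female standard controls it ran from 11.72 to 12.04 in NAc (median 11.86), from 11.69 to 11.82 in VTA (median 11.78) and from 11.49 to 11.69 in PFC (median 11.55). PFC controls lay below all NAc controls and, by less than 0.01, below all VTA controls, while NAc and VTA overlapped. In males it ran from 11.66 to 11.97 in HIP controls and from 11.48 to 11.69 in PFC controls, which overlapped slightly. In standard controls the family took on average 1.28% of all reads in female NAc, 1.16% in female VTA and 0.981% in female PFC. In male HIP and male PFC controls it took 1.16% and 0.981%. Over all libraries of a set, stressed ones included, the median was 1.32% in female NAc, 1.19% in VTA and 0.962% in PFC. It was 1.13% in male HIP and 0.988% in male PFC. In male NAc, from a table normalised separately, the 47 genes found there took 1.23%. In bulk tissue, more cells of a type and more RNA per cell cannot be told apart.

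**Figure D2:**
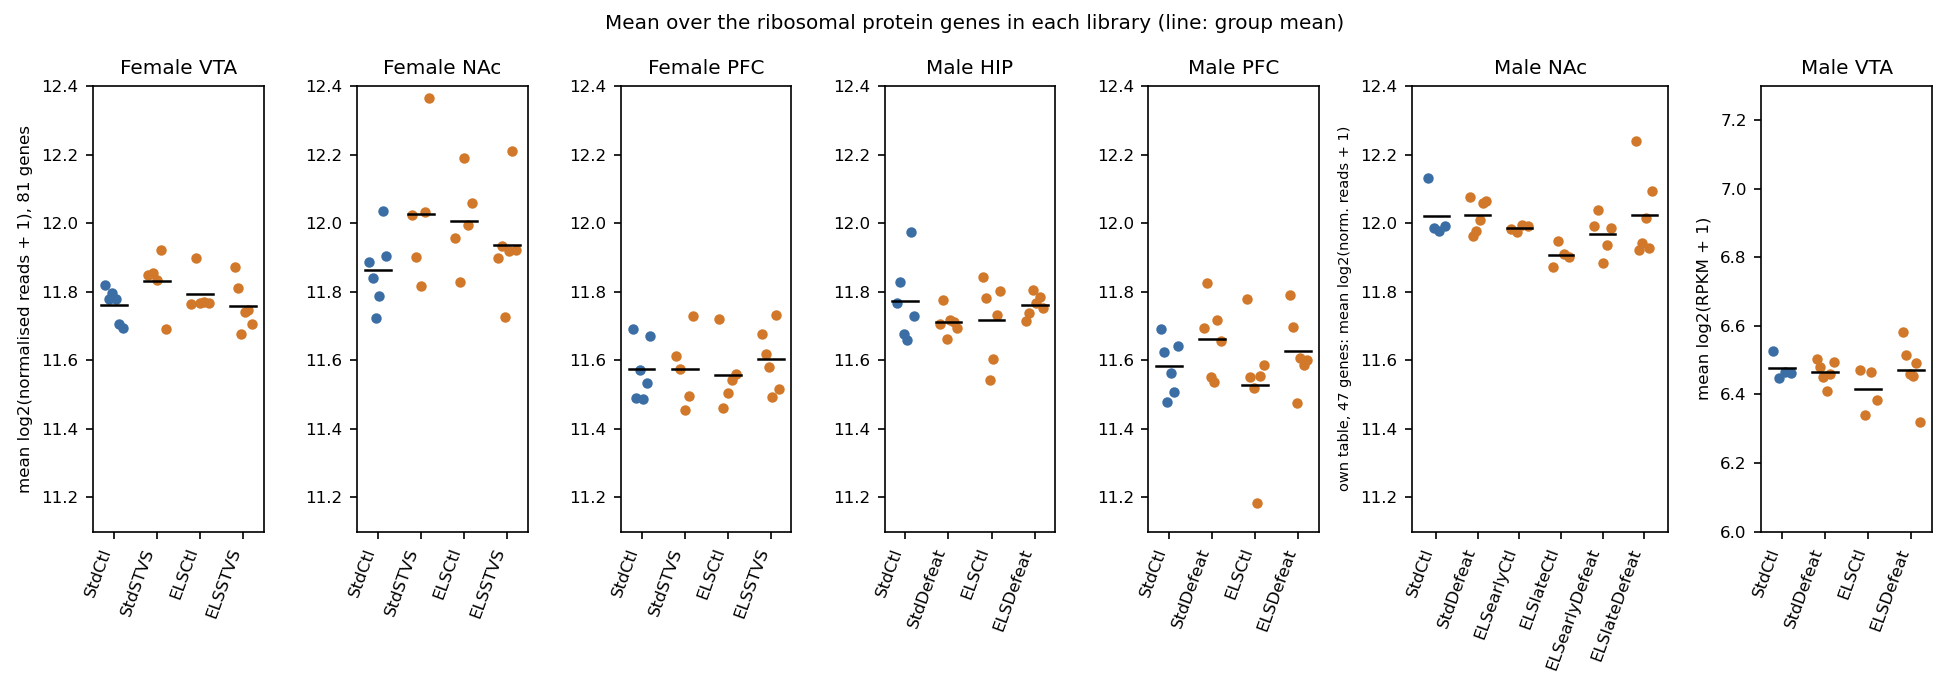
Mean of log2(value + 1) over the ribosomal protein genes in each of the 163 libraries, by group, with lines at group means; Std is standard rearing, Ctl adult control, and blue points are standard controls. The 5 panels on the left share a table and a scale, male NAc (47 genes) and male VTA (RPKM) are on their own scales, and in females NAc controls (11.72 to 12.04) lie above PFC controls (11.49 to 11.69).

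Most ribosomal protein genes were higher in subcortical regions and hippocampus than in PFC. Each gene was tested between standard controls with limma on log2(normalised reads + 1), with Benjamini-Hochberg adjustment over 14000 genes and 6 libraries a region. In female NAc against PFC 65 of 81 members were higher and 1 lower, where 70.5% of all genes tested were called (35.7% higher). The median member difference was 0.28 and that of all genes 0.01. In female VTA against PFC 48 were higher and 5 lower, where 78.8% of all genes were called (40% higher), with a median of 0.19 against 0.01. In male HIP against PFC 46 were higher and 1 lower, where 46.8% of all genes were called (23.4% higher), with a median of 0.17 against 0.01. That count fell to 30 members in all without male PFC standard control replicate 3. The share of members called in either direction was 81.5% in NAc, 65.4% in VTA and 58% in HIP, above the background in NAc and HIP and below it in VTA. Members called were nearly all higher, while genes called over the whole table divided about evenly. The 2 female comparisons share the PFC controls.

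By role, 27 of 30 small subunit genes, 33 of 43 large subunit genes and all 3 stalk genes were higher in NAc than in PFC. In VTA 19 of 30 small subunit and 23 of 43 large subunit genes were higher. All 5 tested paralogs were higher in VTA than in PFC, 2 of 5 in NAc and 4 of 5 in HIP. Of 81 members, 57 had their highest female control mean in NAc, 22 in VTA and 2 in PFC, and 66 had their lowest in PFC. Of the 46 genes higher in HIP 40 were among the 65 (of 81) higher in NAc, 87.0% of the first and 61.5% of the second. With the 48 higher in VTA, HIP had 31 in common, 67.4% of the HIP genes and 64.6% of the VTA genes. Across the 81 genes, which are not independent replicates, the HIP differences had Pearson's r of 0.10 with those in NAc. With those in VTA r was 0.55. Rps4y2 lay far above the other members in HIP (1.55, next 0.59) and was highest in VTA (1.07, next 0.72). The values of r without this gene were not computed. In all 3 comparisons with PFC 27 genes were called higher, among them the X-linked Rps4x, Rpl10 and Rpl36a, the stalk gene Rplp0, and Rps6 and Rps27l. Rpl32, Rpl39, Rps15 and Rps18 were called in none. With 65, 48 and 46 of the 81 members called higher in NAc, VTA and HIP, some overlap arises even without a relation between the comparisons. The overlaps were not counted over all genes.

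**Figure D3:**
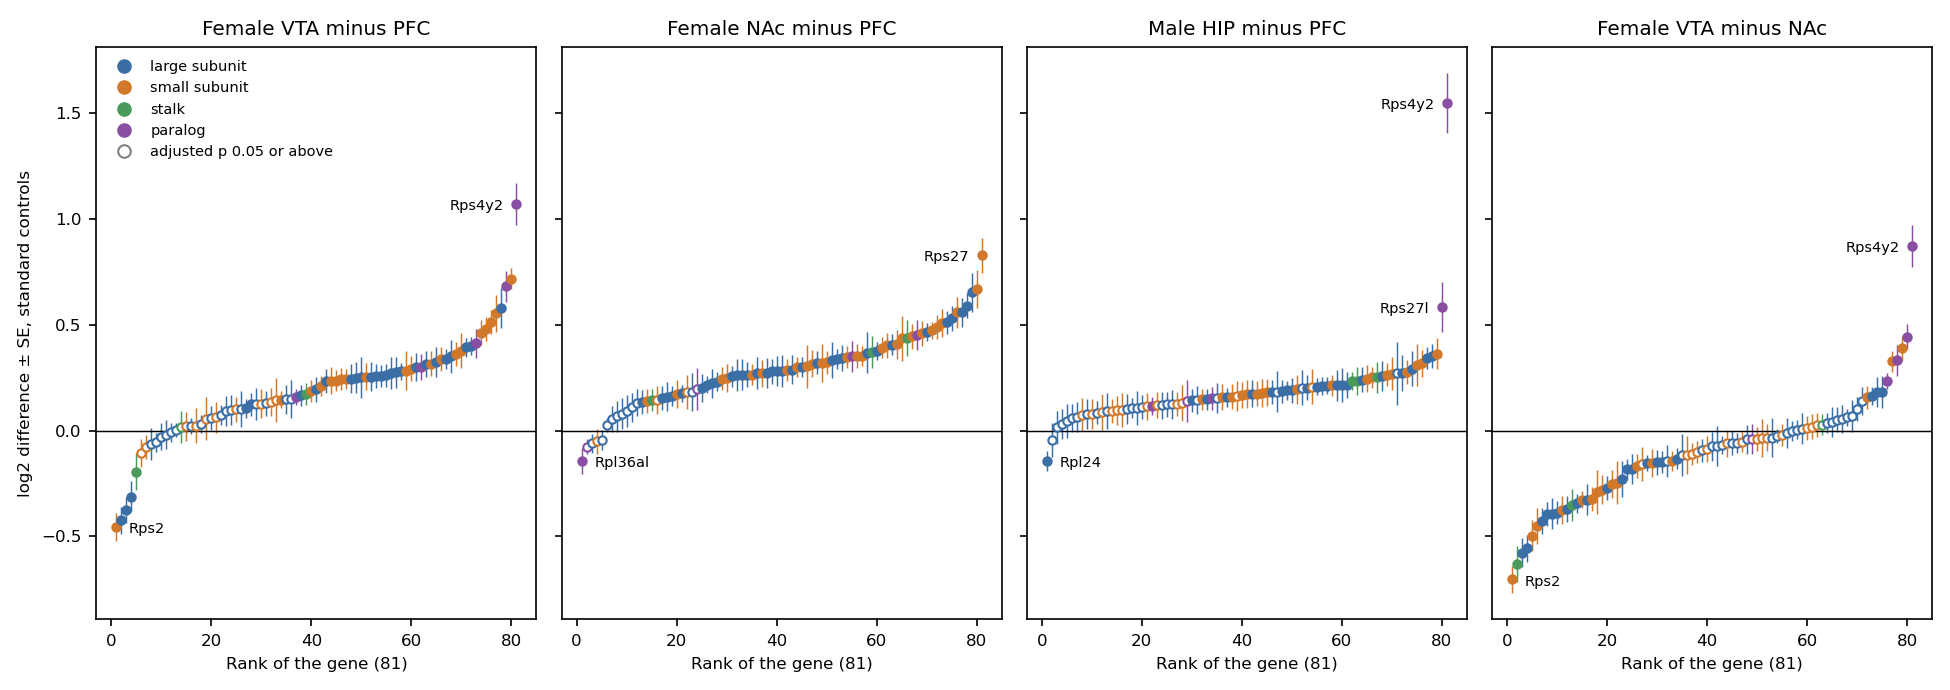
Log2 difference with its SE (limma) of each of the 81 genes between standard controls, ranked within each of 4 region comparisons; filled points have an adjusted p under 0.05 and colours give the role. Most points lie above 0 against PFC, and Rps4y2 stands apart in VTA (1.07) and HIP (1.55).

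The gene that differed most was Rps4y2, the autosomal relative of Rps4x. It ran from 562 to 687 normalised reads in the 6 female VTA controls (median 594) and from 245 to 356 in the PFC controls (median 286). In NAc it ran from 278 to 395 (median 347). VTA therefore did not overlap the other female regions. The log2 difference from PFC was 1.07 ± 0.0987 (SE; limma adjusted p 4.03e-09) in VTA and 0.20 in NAc, which was not called (adjusted p 0.0834). In males it ran from 636 to 1125 in HIP (median 832) and from 226 to 349 in PFC (median 268), a log2 difference of 1.55 ± 0.141 (limma adjusted p 1.72e-06). Its relative Rps4x varied less, with medians of 6920 in VTA, 7606 in NAc and 5879 in PFC, and log2 differences from PFC of 0.24 in VTA, 0.35 in NAc and 0.17 in HIP, all called.

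Rps6, a small subunit protein, was next in VTA. It ran from 7084 to 7703 normalised reads in VTA (median 7376), from 5500.2 to 6482 in NAc (median 5882) and from 4235 to 4945 in PFC (median 4342). The 3 female regions did not overlap. The log2 difference from PFC was 0.72 ± 0.0485 (limma adjusted p 2.79e-11) in VTA and 0.39 in NAc (limma adjusted p 4.51e-07), and in male HIP it was 0.21, with 4891 to 5997 reads against 4447 to 4828. Rps27l, a p53-responsive paralog of Rps27, ran from 237 to 273 in VTA, from 189 to 211 in NAc and from 124 to 171 in PFC, again without overlap. Its log2 difference was 0.68 ± 0.0725 in VTA (limma adjusted p 3.37e-08) and 0.59 ± 0.118 in HIP (limma adjusted p 0.00122). Others well above PFC in VTA were Rpl23a (0.58), Rps12 (0.55), Rps9 (0.51) and Rps27a (0.46), the last of which makes a fusion of ubiquitin with the ribosomal protein.

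Rps27 led in NAc. It ran from 657 to 932 normalised reads in NAc (median 836), from 558 to 619 in VTA (median 589) and from 361 to 501 in PFC (median 481), so that the 3 female regions did not overlap. The log2 difference of NAc from PFC was 0.83 ± 0.0829 (limma adjusted p 2.11e-08). In male HIP it ran from 491 to 717 against 470.2 to 597 in PFC, and the log2 difference of 0.09 was not called (limma adjusted p 0.425). Rps12 ran from 4233 to 6860 in NAc, 4433 to 5202 in VTA and 2904 to 3857 in PFC, with NAc and VTA overlapping and PFC below both. Its log2 difference in NAc was 0.67 ± 0.0888 (limma adjusted p 1.38e-06). Rpl23a (0.65), Rpl30 (0.59), Rpl31 (0.56), Rps19 (0.56), Rpl35a (0.53) and Rpl27a (0.51) followed.

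In male HIP the other leading genes had small differences. Rps28 was higher than in PFC by 0.36 ± 0.0739 on the log2 scale, Rpl22 by 0.35 ± 0.0573, Rpl18 by 0.34 ± 0.0516, Rps12 by 0.32 ± 0.0648, Rps29 by 0.31 ± 0.0995 and Rpl36 by 0.29 ± 0.0839, each called by limma. Rpl22, a large subunit protein with roles in lymphocyte development, ran from 2349 to 3018 normalised reads in HIP and from 2047 to 2231 in PFC and did not overlap. It was not called in the female regions, where its medians were 2147, 2101 and 2222 in VTA, NAc and PFC. Rpl24 was the only member called lower in HIP, with 1488 to 1605 against 1535 to 1841 reads and a log2 difference of -0.14 ± 0.0460 (limma adjusted p 0.0199), and the groups overlapped.

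A few genes ran against the family in VTA. Rps2, a small subunit protein at the mRNA entry channel, ran from 4474 to 4954 normalised reads in VTA (median 4918), from 5970.1 to 7628 in PFC (median 6378) and from 7011 to 8740 in NAc (median 7997). All 6 VTA controls lay below all PFC and NAc controls. The log2 difference was -0.46 ± 0.0648 from PFC (limma adjusted p 2.09e-06) and -0.70 ± 0.0648 from NAc (limma adjusted p 3.45e-09). Rpl12, of the stalk base, ran from 2641 to 3069 in VTA, 3511 to 4366 in PFC and 3775 to 4849 in NAc, and also lay below both without overlap, by log2 differences of -0.42 ± 0.0640 and -0.56 ± 0.0640. Rpl29 (-0.37) and Rpl41 (-0.31) were lower than in PFC too. Rplp1, the most abundant gene of the family, was only marginally lower in VTA than in PFC (-0.19 ± 0.0871, limma adjusted p 0.0487), with 7102 to 8408 against 7792 to 9741 reads, which overlap, and its direction turned with quantile normalisation (0.00199). In NAc it ran from 9923 to 14918, above all VTA controls.

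Between VTA and NAc the family divided. In VTA 10 members were higher and 32 lower than in NAc, where 81.1% of all genes were called (42.5% higher), with a median of -0.07 against 0.03 for all genes. The median was -0.12 without NAc standard control replicate 3 and -0.04 without replicate 5. Below NAc after Rps2 were Rplp1 (-0.63), Rpl31 (-0.58), Rpl12 (-0.56), Rps19 (-0.50), Rps27 (-0.45), Rpl29 (-0.43) and Rpl30 (-0.39). Above NAc were, among others, Rps4y2 (0.87), Rpl36al (0.44), Rps15a (0.39), Rps27l (0.33), Rps6 (0.33), Rpl7l1 (0.23), Rpl18 (0.18), Rpl38 (0.18) and Rpl23 (0.16). Paralogs made 4 of the 10. Rpl36al, the autosomal paralog of the X-linked Rpl36a, ran from 1270.1 to 1464 normalised reads in VTA, 911 to 1174 in NAc and 1039 to 1198 in PFC. Its range in VTA lay above both. Rpl36al was the only member called lower in NAc than in PFC (-0.14 ± 0.0607, limma adjusted p 0.0414). That call did not hold in ELS controls, where the difference was 0.11.

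Paralogs and their parents were not always called in the same comparisons. Rpl22l1 was above PFC by 0.41 in VTA and 0.45 in NAc, both called, while Rpl22 differed by -0.01 and -0.04. In HIP Rpl22 was called and Rpl22l1, at 0.14, was not. Rpl7l1 was higher in VTA by 0.16 and in HIP by 0.12, both called, and at -0.08 was not called in NAc; Rpl7 was called higher in all 3, by 0.40, 0.21 and 0.47. The stalk genes differed in this way too. Rplp0 differed from PFC by 0.17 in VTA, 0.14 in NAc and 0.23 in HIP, all called. Rplp2 differed by 0.37 in NAc and 0.23 in HIP, both called, and by 0.02 in VTA. Of the X-linked genes Rps4x, Rpl10 and Rpl36a were called higher than PFC in all 3 comparisons, and Rpl39, at 0.15, 0.18 and 0.09 in VTA, NAc and HIP, in none. Differences between the paralog and its parent were not tested as such.

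The region pattern was looked for again in the ELS controls, which are other mice (5 a region in females, 6 in males). This was chosen after the data were seen. In VTA against PFC 53 members were higher and 3 lower (74.6% of all genes called, 37.7% higher), and 44 of the 48 genes higher in standard controls were higher again. In NAc 74 were higher and 0 lower (65.7% of all genes called, 33.6% higher), and all 65 genes higher in standard controls were among them. In VTA against NAc 6 were higher and 46 lower (75.8% of all genes called), with all 32 of the lower genes called again. In male HIP 12 were higher and 0 lower (36.8% of all genes called, 17.5% higher), 11 of them shared with the 46 in standard controls, while the median was 0.17 in both. Across the 81 genes, which are not independent replicates, differences in standard and ELS controls were correlated. Pearson's r was 0.97 in VTA against PFC, 0.94 in NAc against PFC, 0.98 in VTA against NAc and 0.94 in HIP against PFC. In HIP Rps4y2 lay far out (1.55 in standard controls, next 0.59), and r without this gene was not computed. Male PFC ELS controls varied most, with means over members from 11.18 to 11.78.

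**Figure D4:**
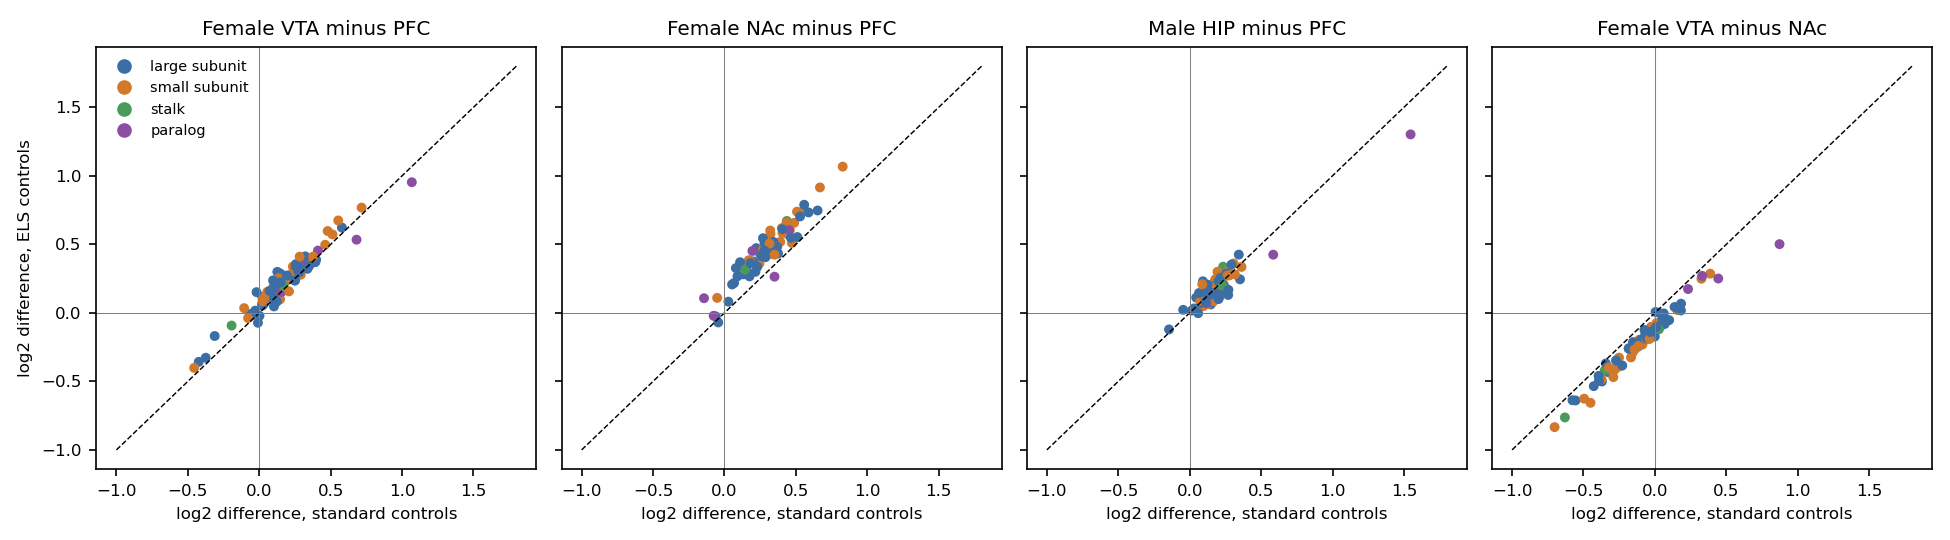
Log2 difference between regions of each of the 81 genes in standard controls (x axis) against that in ELS controls (y axis), coloured by role; the dashed line marks equal values. Points follow the line, with Rps4y2 far out in VTA (1.07 and 0.95) and HIP (1.55 and 1.30), and the NAc median is higher in ELS controls (0.43) than in standard controls (0.28).

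Several leading genes were called again in the ELS controls. Rps4y2 was above PFC by 0.95 in VTA and 1.30 in HIP, Rps6 by 0.77 in VTA, and Rps27 by 1.07 in NAc, each called by limma. Rps2 and Rpl12 were again lower in VTA than in PFC (-0.40 and -0.36) and lower than in NAc (-0.83 and -0.64). Rplp1 was again lower than in NAc (-0.76) and was not called against PFC (-0.09). Rps6 was not called in HIP (0.12, limma adjusted p 0.156), and Rps4y2 was called in NAc against PFC (0.45, limma adjusted p 0.00512), where it was not in standard controls. In HIP Rps28, Rps12, Rps29 and Rpl24 were not called in ELS controls, nor were Rpl18, Rpl38 and Rpl23 in VTA against NAc or Rpl41 in VTA against PFC.

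Cell type markers differed between the same controls, where 78.8% of all genes tested were called in VTA, 70.5% in NAc and 46.8% in HIP. Of 8 myelin genes 8 were higher in VTA than in PFC, with sums of 499353 to 677188 against 41047 to 54692 normalised reads, and 8 of 8 were higher in NAc, with 155850.0 to 223667. Of 8 neuronal genes 6 were lower in NAc, with sums of 114222 to 141445 against 203163 to 236286 in PFC, and 3 were higher and 3 lower in VTA. In VTA 5 of 6 astrocyte and 5 of 5 blood genes were higher and 5 of 6 microglial genes lower. In male HIP 6 of 8 neuronal genes were lower, 5 of 6 astrocyte genes were higher, 0 of 8 myelin genes were called, and 6 choroid plexus genes summed to 437 to 277674 reads against 117 to 594 in PFC. No gene of these lists was at 0 in all controls of a region. Their part in the ribosomal protein differences was not tested. Without the doubted libraries, which include those rich in choroid plexus RNA, 44 members were higher and 0 lower in HIP (35.5% of all genes called), 45 and 5 in VTA against PFC (77.4% of all genes) and 9 and 31 in VTA against NAc (79.9% of all genes).

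Other genes of the translation machinery were read from 4 lists. Of 25 translation partners (elongation and initiation factors and proteins of the ribosome with other names) 12 were higher and 4 lower in VTA than in PFC, 13 and 5 in NAc, and 9 and 1 in HIP. Of all genes tested 40% were called higher and 38.8% lower in VTA, 35.7% and 34.7% in NAc, and 23.4% and 23.3% in HIP. The medians of this list were 0.14, 0.13 and 0.08. Eef1a1, which brings aminoacyl-tRNA to the ribosome, was higher by 0.14, 0.52 and 0.36, and its neuronal and muscle relative Eef1a2 differed by -0.38, -0.63 and -0.33, so that the isoforms differed from PFC in opposite directions in all 3. Rpsa, a small subunit protein outside the rule, was higher by 0.25, 0.54 and 0.18. Tpt1 led in VTA (0.60), followed by Btf3 (0.47) and Eef2 (0.44), and Pabpc1, the poly-A binding protein, was lowest (-0.54).

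Of 27 ribosome biogenesis genes 10 were higher and 10 lower in VTA, 5 and 6 in NAc, and 3 and 3 in HIP, so this list did not lean to one side as the ribosomal proteins did. Npm1, a nucleolar chaperone, led it in each, by 0.59, 0.40 and 0.31. Of 17 genes listed for the mTORC1 pathway 5 were higher and 9 lower in VTA, 3 and 9 in NAc, and 3 and 7 in HIP. The list includes Pdk1, in mouse the symbol of a pyruvate dehydrogenase kinase and not of a pathway member. Pdk1 was among the genes called lower in VTA and NAc. Deptor, an inhibitor of mTOR, differed by -0.52, -2.13 and -1.60, and Eif4ebp1, a repressor of cap-dependent translation, by -1.85, -1.75 and -1.24, while Ddit4, which restrains mTORC1 under stress, was higher by 0.34, 0.35 and 0.63. Of 75 mitochondrial ribosomal proteins 46 were higher and 7 lower in VTA (median 0.18), 21 and 14 in NAc (0.03), and 17 and 1 in HIP (0.07). In NAc, where most cytosolic members were higher, the mitochondrial list was near the median of all genes. Beside the counts of these lists, 78.8% of all genes tested were called in VTA, 70.5% in NAc and 46.8% in HIP.

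Female and male PFC controls were set side by side; sex and cohort cannot be told apart there. Of 81 members limma called 0, where 0.114% of all genes were called, and edgeR called 0, with 2 members at an unadjusted p under 0.05. The median was -0.01. The 4 X-linked members differed by 0.05 (Rpl10), -0.04 (Rpl36a), -0.15 (Rpl39) and -0.04 (Rps4x), and none was called. Xist went against the labelled sex in male PFC standard control replicates 1 and 4. Without these doubted libraries limma called 0 members and 0.0571% of all genes.

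After stress no member passed the test. In each of 31 comparisons of ELS, adult stress, both, or their interaction, limma called 0 members and 0 genes of the whole table (0% called), and edgeR called 0 in the 27 it could be run on. Members at an unadjusted p under 0.05 were found in 18 of the 31, with 16 at most by limma and 21 by edgeR, and 2.03% to 14.4% of all genes had such a p in the 31 comparisons. The lowest adjusted p of a member was 0.287. Median member differences ran from -0.24 to 0.17 on the log2 scale, and medians of all genes from -0.02 to 0.03. ELS, adult stress and both are set against the same controls within a set, so these comparisons share them.

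**Figure D5:**
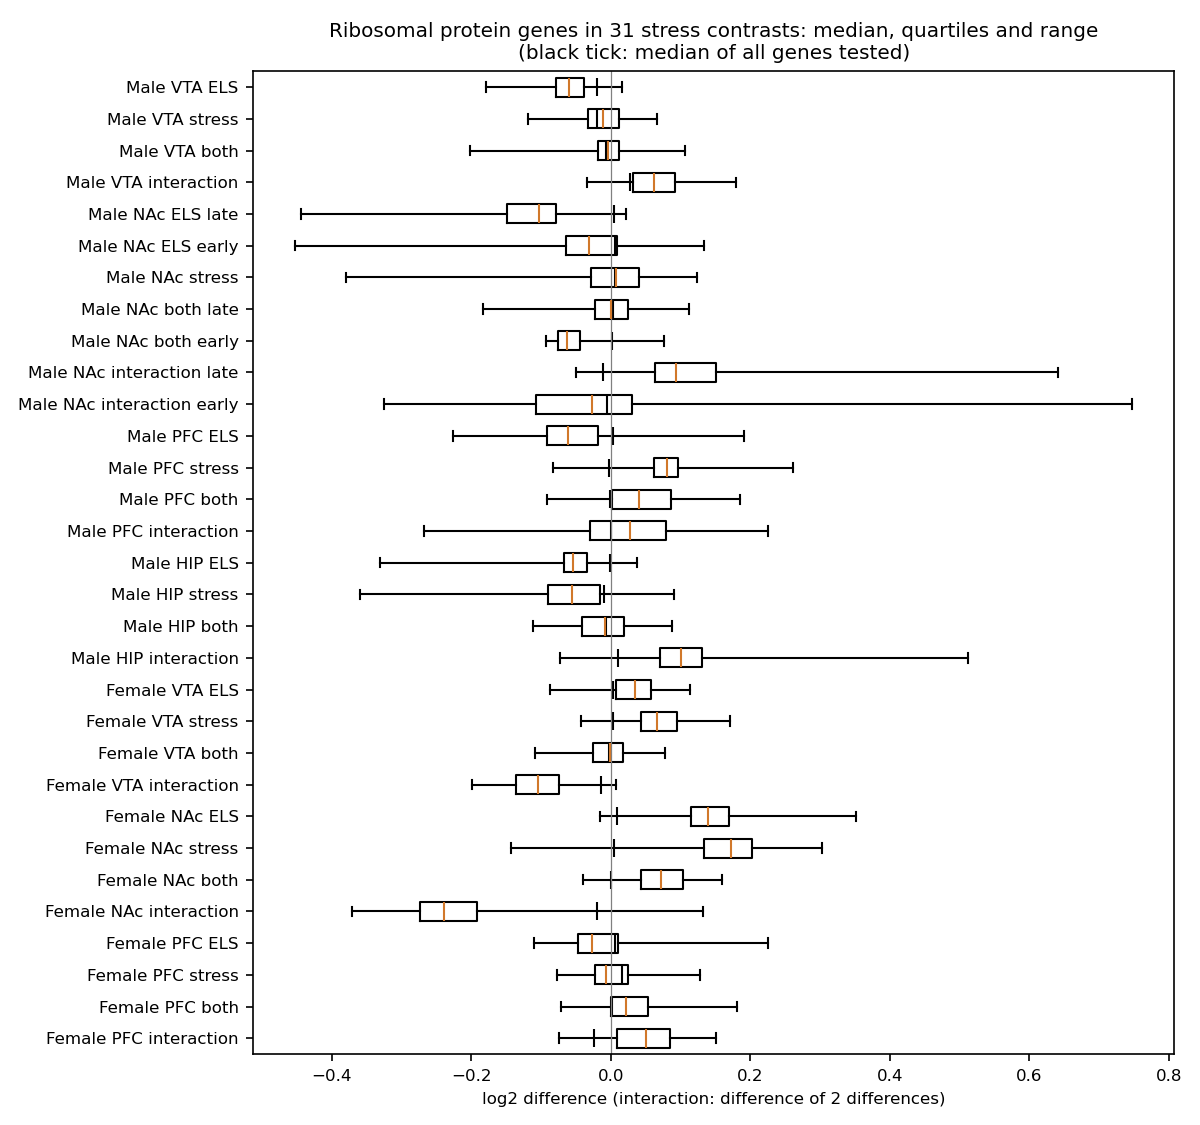
Log2 differences of the ribosomal protein genes in 31 stress comparisons (boxes: quartiles; orange line: median; whiskers: lowest and highest gene; black tick: median of all genes tested). No gene passed the test, and female NAc shows the widest shifts, with medians of 0.14, 0.17 and -0.24 for ELS, STVS and the interaction.

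The members of a library moved together. After removing group means, the mean over members had an SD of 0.154 across the 22 female NAc libraries, where a single member had a median SD of 0.167 and any gene tested one of 0.138. In male PFC these were 0.130, 0.148 and 0.120, and in female PFC 0.0967, 0.124 and 0.118. In the other sets a member varied less than other genes, with 0.0609, 0.0787 and 0.0996 in male VTA and 0.0732, 0.0958 and 0.210 in male NAc. An average over genes that varied independently would have an SD far below that of a single gene. The mean over members lay farthest from its group in male PFC ELS control replicate 4, where 76 of 81 members lay below their group means and the average difference was -0.35. In female NAc standard STVS replicate 5, 80 of 81 lay above, with an average of 0.34. Rpl23a varied most in 4 of the 7 sets (male VTA, male NAc, male HIP and female VTA), and Rps4y2 in both PFC sets.

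In 14 of the 31 stress comparisons at least 9 in 10 members lay on one side of 0, although none of them passed the test. Of all genes tested 37.3% (male VTA after ELS) to 60.8% (male VTA interaction) lay above 0. In female NAc 80 of 81 members lay above 0 after STVS and 80 after ELS, and 80 lay below 0 for the interaction. Of all genes 52.2%, 53.5% and 45.1% lay above 0 there. The means over members ran from 11.72 to 12.04 in the 6 standard controls (median 11.86), from 11.82 to 12.37 in the 5 standard STVS (median 12.02), from 11.83 to 12.19 in the 5 ELS controls (median 11.99) and from 11.73 to 12.21 in the 6 ELS STVS libraries (median 11.92). All 4 groups overlapped. Rpl36al had the smallest p of the higher members after STVS, with 999.5 to 1385 normalised reads against 911 to 1174 in controls, a log2 difference of 0.24 ± 0.0915 (limma adjusted p 0.730). Rpl24, with 1253 to 1685 reads against 1575 to 1761, was the only member on the other side (-0.14). After ELS it was Rpl22l1 (0.20 ± 0.0832, limma adjusted p 0.425), with 885 to 1176 against 798 to 902 reads, and for the interaction Rps13 (-0.30 ± 0.119, limma adjusted p 0.612).

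These female NAc medians depended on single libraries. Leaving out 1 library at a time moved the STVS median between 0.08 and 0.23, the ELS median between 0.09 and 0.19 and the interaction between -0.30 and -0.15, all on the same side. The values nearest 0 came without standard STVS replicate 5 for STVS and the interaction, and without ELS control replicate 3 for ELS. Members at an unadjusted p under 0.05 after STVS were 13 of 81 (16%, against 6.16% of all genes), 0 without standard STVS replicate 5 and 53 without standard STVS replicate 3. After ELS they were 4 of 81 (4.94%, against 11.2% of all genes), and 1 to 21 when 1 library was left out. For the interaction they were 10 (12.3%, against 7.94%), and 1 to 56. Without the 2 doubted NAc libraries the STVS median was 0.23, with 49 such members, and without the libraries whose adult label repeats the sex it was 0.18, with 2, and 0 members were called in either. The median after both stresses, 0.07, was 0.18 without those repeated labels, 0.12 without ELS STVS replicate 3, 0.05 without standard control replicate 3 and 0.02 without ELS STVS replicate 5. Summed PFC markers ran from 140 to 11745 normalised reads in the standard controls, 311 to 13662 in standard STVS and 186 to 1971 in ELS controls, and blood markers reached 10457 in 1 standard STVS library against at most 1241 in controls. Their part was not tested.

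In male NAc the later ELS window gave the one group whose library means did not overlap its controls. The means over 47 members were 11.87, 11.90, 11.91 and 11.95 in the 4 libraries with ELS on days 10 to 20, and 11.98, 11.98, 11.99 and 12.13 in the standard controls. The 4 libraries of days 2 to 12, at 11.97, 11.98, 11.99 and 12.00, overlapped the controls. In the later window 46 of 47 members lay below 0, with a median of -0.10 and 16 at an unadjusted p under 0.05 (34%, against 6.77% of all genes). Without standard control replicate 4, the highest, the median was -0.08 and 1 member had such a p, so the count rested on that library. The lowest p among members was that of Rpl5, which binds 5S rRNA, with 5125 to 5308 normalised reads against 5642 to 6086, a log2 difference of -0.15 ± 0.0513 (limma adjusted p 0.549) and no overlap. Defeat after this ELS left no such gap, with means of 11.92 to 12.24.

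In the other sets medians lay between -0.10 and 0.10. After STVS 79 of 81 members lay above 0 in female VTA (median 0.07, 11 at an unadjusted p under 0.05, 13.6% against 4.44% of all genes), led by Rpl15 (0.11 ± 0.0385, limma adjusted p 0.827), and 80 lay below for the interaction (-0.10). Summed blood markers reached 11938 normalised reads in 1 standard STVS library and at most 2213 in the controls, and their part was not tested. After defeat 79 of 81 lay above 0 in male PFC (0.08, 0 with such a p, against 3.35% of all genes), and without the doubted libraries the median was 0.13, with 7. There blood markers reached 16111 and VTA markers 9099 in standard defeat libraries, against at most 1953 and 676 in controls, and their part was not tested. In male HIP 66 of 81 lay below 0 after defeat (-0.06, 5 with such a p, 6.17% against 14.4% of all genes). Without the doubted libraries 79 did (-0.12, with 14), and the median after both stresses moved from -0.01 to -0.08, and was 0.03 without standard control replicate 5. In male VTA 78 of 81 lay below 0 after ELS (-0.06, 2 with such a p, 2.47% against 2.03% of all genes). Of all genes 37.3% lay above 0 there, with a median of -0.02. Means over members were 6.34 to 6.47 in the 4 ELS controls and 6.45 to 6.53 in the 4 standard controls on the log2(RPKM + 1) scale. In male HIP 76 lay above 0 for the interaction (0.10), where Rps27l had 0.51 ± 0.170 (limma adjusted p 0.368). That gene ran from 191 to 319 normalised reads in HIP standard controls, 185 to 242 in ELS controls, 194 to 254 after defeat and 207 to 300.1 after both, and all groups overlapped. Summed choroid plexus markers in those controls ran from 437 to 277674 reads. Leaving out 1 library moved the female VTA median for STVS between 0.04 (without standard STVS replicate 4, 1 member with such a p) and 0.10 (without replicate 5, 38 members), the male PFC median for defeat down to 0.05 (without standard defeat replicate 2) and the HIP interaction down to 0.06 (without standard control replicate 5 or ELS control replicate 3). The HIP median after defeat was -0.01 without standard control replicate 5 and -0.08 without replicate 4. The male VTA median for ELS was -0.04 without ELS control replicate 2. In female PFC medians lay between -0.03 and 0.05, and leaving out 1 library moved the highest, that of the interaction, between 0.02 (without standard STVS replicate 3) and 0.09 (without standard STVS replicate 5).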

How the data were processed

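The 163 RNA libraries were grouped by their titles and characteristics. The 16 samples of chromatin or input DNA were not used here. For all but male VTA the authors deposited a signal in normalised reads (gene counts divided by 1 factor per library); the submitters' processing notes name HISAT, HTSeq and build mm10. For male VTA the authors deposited RPKM; those notes, which also cover chromatin samples, name mm9, mm10, TopHat2 and HTSeq, beside MACS2 2.1.1, SAMtools 0.1.19 and Bowtie2 2.2.0. The sources used here do not say how the factors were made. All positive normalised values (100%) were whole multiples of 1 read (tolerance 0.001), which gave reads for edgeR 4.0.16 as an alternative. The 3 tables were normalised separately and tested separately.

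The test in each set was limma 3.58.1 (in R 4.3.3, with trend and robust options) on log2(value + 1), which understates changes of low genes, with 1 coefficient per group and a threshold of 0.05 over the 14000 genes of highest mean (for male VTA, the 14586 genes whose RPKM averaged 0.5 or more). The authors' tables held 181 male VTA genes without values, left out. Members, lists and alternatives were chosen with earlier results of these data known. Named are the 8 largest called differences on each side and any member on the minority side per region comparison, the higher and lower member of smallest p in the stress comparisons described, the paralogs, stalk, X-linked and Rps6 genes, and the 5 highest and lowest levels. Some genes that this rule names are not reported here. In 2 simulated comparisons of 14000 genes (male PFC defeat; female VTA against PFC) limma recovered 99 of 100 genes changed by 0.5 and 100 of 100 changed by 1, with 15 and 10 false calls. Recovery of changes smaller than 0.5, such as the stress medians of -0.24 to 0.17, was not tested. Recovery of changes of any size in the measured libraries was not tested either. There Rps27l, at 0.51 ± 0.170 for the male HIP interaction, was not called (limma adjusted p 0.368). A library was doubted with Xist above 200 normalised reads in a male, Ddx3y above 50 or Xist under 0.5 of the median in a female, or Ttr above 10000. Outside male VTA, where this was not checked, all 328 pairs of libraries within a group differed beyond sampling noise. Per the labels a sample is 1 mouse or a pool of 3, and whether regions came from the same mice is not said, so p-values measure the spread between these samples.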

Additional observations from a re-analysis of the deposited data

Results flagged for a closer look

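In 30 groups the mean over members was searched for a library far from the others. Some genes named above were searched singly in standard controls, in 60 searches of 1 gene in 1 group. Chance flags about 1 in 20. Female VTA ELS control replicate 2, at 11.90 on the log2 scale, stood above the other 4 libraries, which lay between 11.77 and 11.77. Male NAc standard control replicate 4, at 12.13, stood above the other 3 at 11.98 to 11.99, and it bears on each comparison with those controls. Rps27l was low in female PFC standard control replicate 3, at 124 normalised reads against 161 to 171 in the other 5.

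Every female VTA ELS control lay above the mean of its standard controls (mean difference 0.0316), while every ELS control lay below the mean of its own standard controls in male VTA (-0.0608), in male NAc with the later window (-0.114) and in male NAc with the earlier window (-0.0358). These sets come from 3 tables, and the difference between them was not tested. In female VTA 4 of the 5 libraries lay within the range of the standard controls. All but replicate 2 lay at 11.765 to 11.770, just above the control mean of 11.762. In male NAc the control mean of 12.02 includes the high replicate 4 (12.13), and the other standard controls lay at 11.98 to 11.99. The early-window libraries, at 11.97 to 12.00, lay on both sides of those, so their direction rested on that replicate.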

How the results depend on the processing

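In the 31 stress comparisons 0 members were called in any of 643 fits, and 1 gene at most of the whole table in 2 of them. The early-window interaction median in male NAc, -0.03, was 0.0285 with scaling by library total. For the stress comparisons described above, moves of over 1.5 times without single, doubted or repeated-label libraries are given there.

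Counts for the regions held within 1.5 times except in male HIP against PFC (47 members): 12 in ELS controls, and 30 to 52 when 1 library was left out, the lowest without male PFC standard control replicate 3. Leaving out 1 library gave 50 to 55 in VTA against PFC, 60 to 70 in NAc against PFC and 38 to 44 in VTA against NAc. Medians moved in VTA against PFC to 0.29 (quantile normalisation) and 0.27 (library total), in NAc against PFC to 0.38 (quantile normalisation), 0.39 (all 4 groups averaged) and 0.43 (ELS controls), and in VTA against NAc to -0.19 (ELS controls), -0.15 (averaged) and -0.12 (edgeR with TMM). Library-total scaling moved the median of all genes to 0.09 to 0.10 in the comparisons with PFC. Of single named genes, 3 values reversed: Rplp1 in VTA (0.00199, quantile normalisation) and Rpl36al in NAc (0.0314 averaged, 0.11 in ELS controls). Of 1020 values of named genes under alternatives 55 lost the call. The causes were not tested.

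With the replicate number as a block, members called were 51, 66, 42 and 38 in VTA against PFC, NAc against PFC, VTA against NAc and HIP against PFC (78.5%, 70.4%, 80.9% and 44.1% of all genes), and 0 in the 24 stress comparisons outside male NAc, where it was not run. In female NAc members at an unadjusted p under 0.05 went from 13 to 41 after STVS, from 4 to 23 after ELS and from 10 to 42 for the interaction, and over all genes from 862 to 1093, 1569 to 1932 and 1111 to 1380. The labels do not say that numbers pair samples, and not every same-numbered pair correlated: such pairs had median correlations of 0.01 to 0.17 per set, against -0.04 to 0.00 for other pairs, and went down to -0.86, and 5 to 10 of the 20 to 24 libraries of a set correlated best with their own number.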
